A study of Mus musculus with 8 samples.

Results

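The change between P12 and P24, postnatal days 12 and 24, was measured in the ventricles, the pumping chambers of the mouse heart. The 4 libraries compared are 2 of P24 ventricle and 2 of P12 ventricle, out of 8 in the series, which also covers P3 and P6. All groups are C57BL/6J mice, an inbred laboratory strain, with no other treatment or allele named in the labels. Poly(A) RNA was sequenced, and the values are the normalized counts that the authors deposited, a read count per gene scaled between libraries. Genes were included by level alone, with at least 10 normalized counts in at least 2 of the 4 libraries, which took 13686 of the 21970 genes in the table. Neither the number of animals behind a library nor the hour of collection is given in the labels. The p-values therefore reflect the scatter of these libraries alone, and how far this is the scatter between animals is not known.

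Mouse heart muscle cells divide around birth and then leave the cell cycle within the first weeks of life. Over the same period they replace fetal contractile proteins with adult ones, turn to fatty acids as their main fuel, and form a dense network of mitochondria and membrane tubules for calcium release. The window from P12 to P24 spans weaning, when milk is replaced by chow, and a rise in circulating glucocorticoid. Retinoic acid, a vitamin A derivative that acts through nuclear receptors and that the study's title names, is made by aldehyde dehydrogenases and removed by CYP26 enzymes.

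The P24 libraries held 23806610 and 26478665 reads in protein-coding genes, against 27115890 and 28745112 in the P12 libraries. Replicates lay close together at both stages, with a median absolute log2 difference of 0.115 at P24 and 0.143 at P12. Y-linked reads numbered 2 and 5260 in the P24 libraries and 7182 and 1 in the P12 libraries, so each stage had 1 library with many Y-linked reads. The 2 libraries of a stage were therefore not repeats of the same material. No list of ventricular markers was run. Myl2, the ventricular myosin light chain, a single gene chosen after its values were seen, had 239582 and 254640.0 normalized counts at P24, against 205512 and 225892 at P12, and the 12 atrial markers summed to 7725 and 8238 normalized counts at P24, against 4189 and 4501 at P12. In bulk tissue, fewer cells of a type and less RNA per cell cannot be told apart, and this holds for every gene group described.

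Of the genes tested, 6630 changed (48.4%; limma, BH-adjusted p below 0.05), of which 3696 rose at P24 (27%) and 2934 fell (21.4%). The median log2 change over all genes tested was 0.03. At least 2-fold rises numbered 668 (4.88%) and at least 2-fold falls 739 (5.4%). A fit on all 8 libraries, which includes the widely spaced P6 pair, called 2296 genes, 1162 rising and 1134 falling. Rising genes were 55.75% of the calls with the authors' scaling and 31% when libraries were scaled by library size alone, which moved the median change of all genes to -0.17. List counts are therefore read against the shares of all genes.

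**Figure D1:**
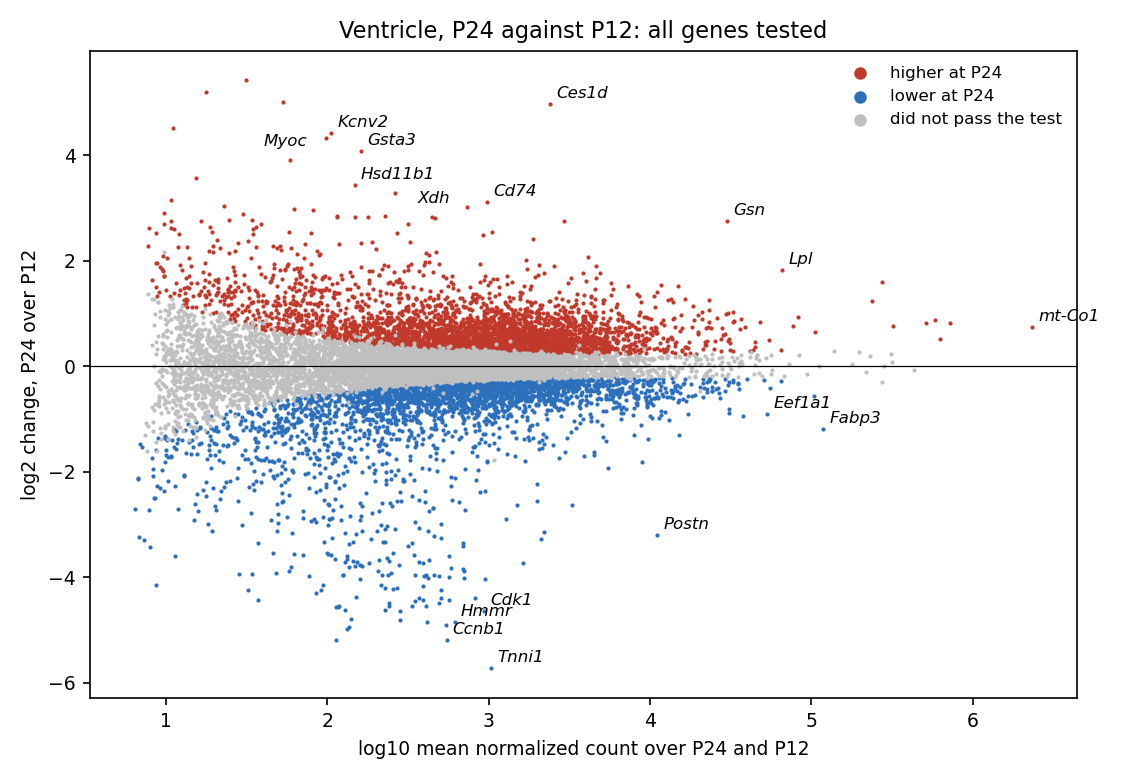
Log2 change at P24 over P12 for each of the 13686 genes tested against the mean normalized count of the 2 stages on a log10 axis, 2 libraries per stage, coloured by the limma test. The lower tail, with Tnni1, Ccnb1, Hmmr and Cdk1, holds mostly genes of moderate level, and the mitochondrial gene mt-Co1 lies farthest right among those labelled.

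The direction of change also moved with gene length. Genes were ordered by length into 10 equal bins. In bin 1, the shortest, 12.35% rose and 40.8% fell, with a median log2 change of -0.27, and in bin 10, the longest, 51.35% rose and 9.13% fell, with a median of 0.32. The medians increased from each bin to the next. Removing this trend from each library left 3123 rising genes (22.8%) and 3227 falling genes (23.6%). The cause of the trend was not tested.

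**Figure D2:**
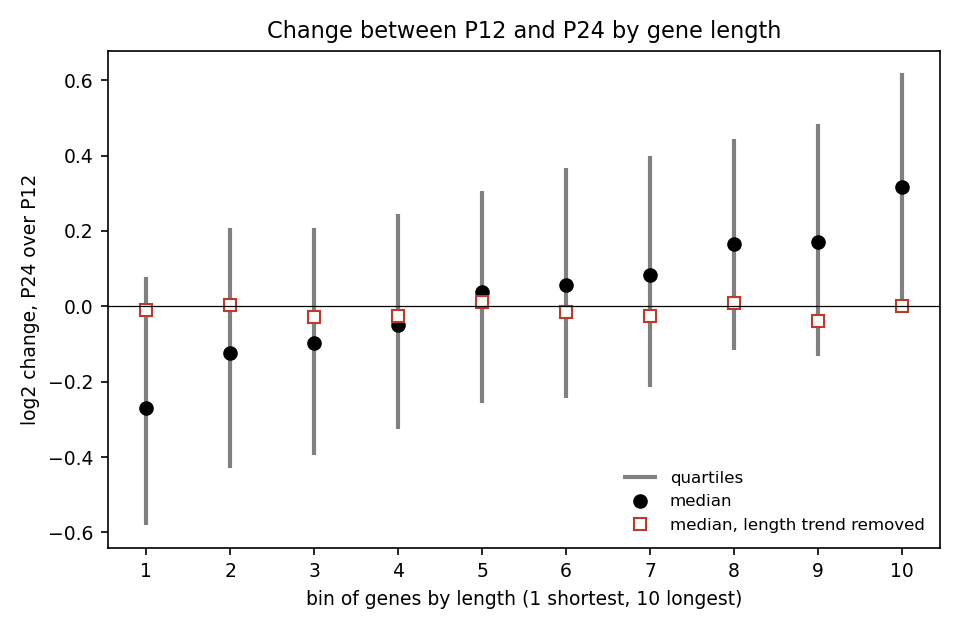
Median (circles) and quartiles (bars) of the log2 change at P24 over P12 in 10 bins of the tested genes ordered by the length implied by the deposited FPKM, with medians after removal of the length trend (open squares). The median is -0.27 in bin 1, the shortest, and 0.32 in bin 10, the longest, and stays near 0 after removal.

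**Figure D3:**
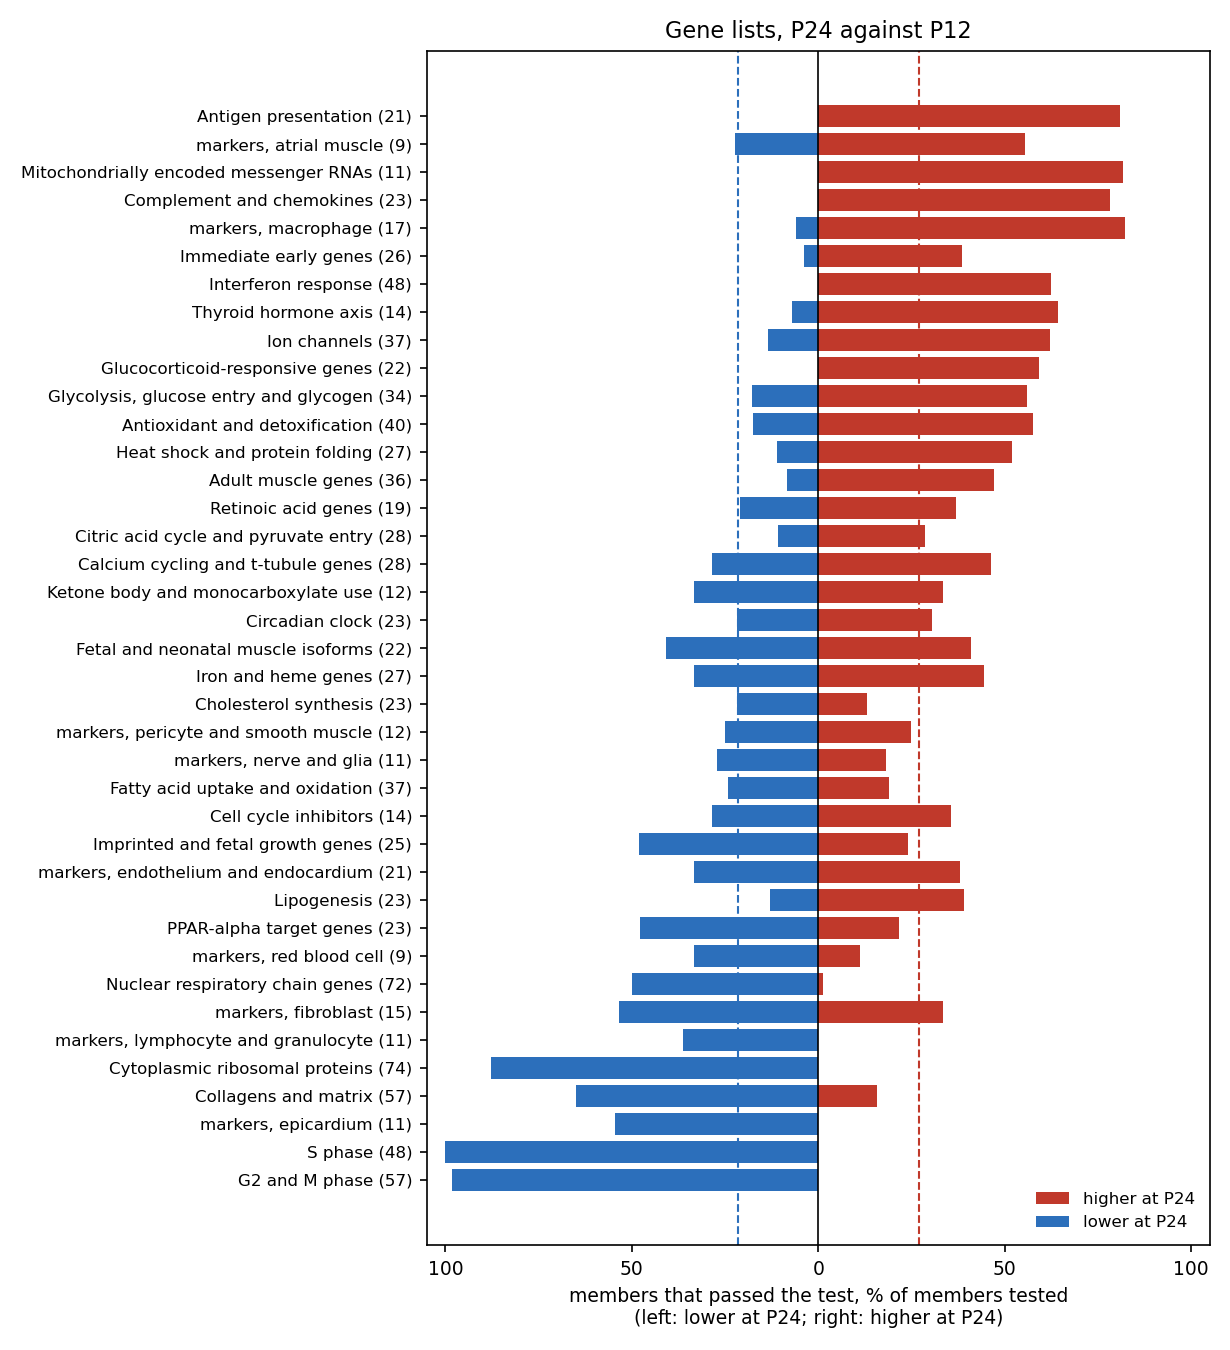
Share of the tested members of each list (number tested in brackets) that were higher at P24 (red, right) or lower (blue, left) by the limma test, ordered by median log2 change; dashed lines give the 27% rising and 21.4% falling of all genes tested. The G2 and M phase and S phase lists are lower in nearly all members, and the antigen presentation and complement lists have none lower.

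Genes of cell division fell at P24. All 48 tested genes of S phase, the period of DNA synthesis, fell at P24, 39 of them at least 2-fold, and the median log2 change was -1.88. G2 and M phase cover the preparation for mitosis and mitosis itself, and of their 57 genes 56 fell and 55 did so at least 2-fold, with a median of -3.73. These shares stand against 21.4% falling, and 5.4% falling at least 2-fold, over all genes tested. With the length trend removed 46 and 56 fell. Tested against a log2 change of 1 in place of 0, an alternative added after the data were seen, 29 of the S phase and 53 of the G2 and M phase genes still fell.

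Ccnb1, cyclin B1, the partner of Cdk1 at entry into mitosis, had 33.9 and 23.4 normalized counts at P24, against 999 and 1139.6 at P12 (log2 change -5.20 ± 0.19 (SE), limma adjusted p = 1.14e-09). Cdk1, the mitotic kinase itself, had 66.4 and 72.6 normalized counts at P24, against 1425 and 2172 at P12 (log2 change -4.64 ± 0.17 (SE), limma adjusted p = 1.56e-09). Hmmr, a spindle protein, had 37.9 and 43.04 normalized counts at P24, against 1176 and 1208 at P12 (log2 change -4.85 ± 0.14 (SE), limma adjusted p = 3.33e-10). In each of these genes both P24 libraries lay far below both P12 libraries. Nek2, a kinase of centrosome separation, had 20.3 and 20.9 normalized counts at P24, against 496 and 588 at P12, a log2 change of -4.65. Cep55, needed for the final separation of daughter cells, had 16.3 and 20.9 normalized counts at P24, against 476 and 620.4 at P12, a log2 change of -4.81. Other genes among the 12 largest falls were Ckap2, Pimreg, Depdc1a, Fam83d, Cdkn3 and Sapcd2, with log2 changes between -4.80 and -5.20, most of them known from mitosis.

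On the side of DNA synthesis, Clspn, which relays replication stress to the checkpoint kinase, had 23.03 and 20.9 normalized counts at P24, against 365 and 454 at P12 (log2 change -4.15 ± 0.20 (SE), limma adjusted p = 1.08e-08). Dtl, which marks replication factors for destruction, had 13.5 and 14.8 normalized counts at P24, against 208 and 264 at P12 (log2 change -3.96 ± 0.23 (SE), limma adjusted p = 7.65e-08). Exo1, an exonuclease of mismatch repair, had 13.5 and 4.92 normalized counts at P24, against 129.6 and 162 at P12, a log2 change of -3.97. P24 values were low and close together in the first 2 genes and differed more in Exo1, where they rest on few reads.

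The fall came between P12 and P24, with little change before P12 in the G2 and M phase genes. Relative to each gene's P12 mean, the G2 and M phase median was 0.42 and 0.27 at P3. It was 0.04 and 0.09 at P6, then -0.13 and 0.13 at P12, and last -3.74 and -3.73 at P24. The S phase median was 1.01 and 0.81 at P3, then 0.09 and 0.25 at P6, then -0.17 and 0.17 at P12, and last -1.87 and -1.86 at P24. S phase genes thus stood higher at P3 than at P6, while G2 and M phase genes stayed near the same level to P12. The difference of the P24 over P12 change from the P6 over P3 change, which share no library, passed the test in the negative direction in 53 of 57 G2 and M phase genes and in 26 of 48 S phase genes, against 4.55% of all genes tested. For Ccnb1 this difference was -5.12 ± 0.32 (SE, limma adjusted p = 7.78e-05).

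**Figure D4:**
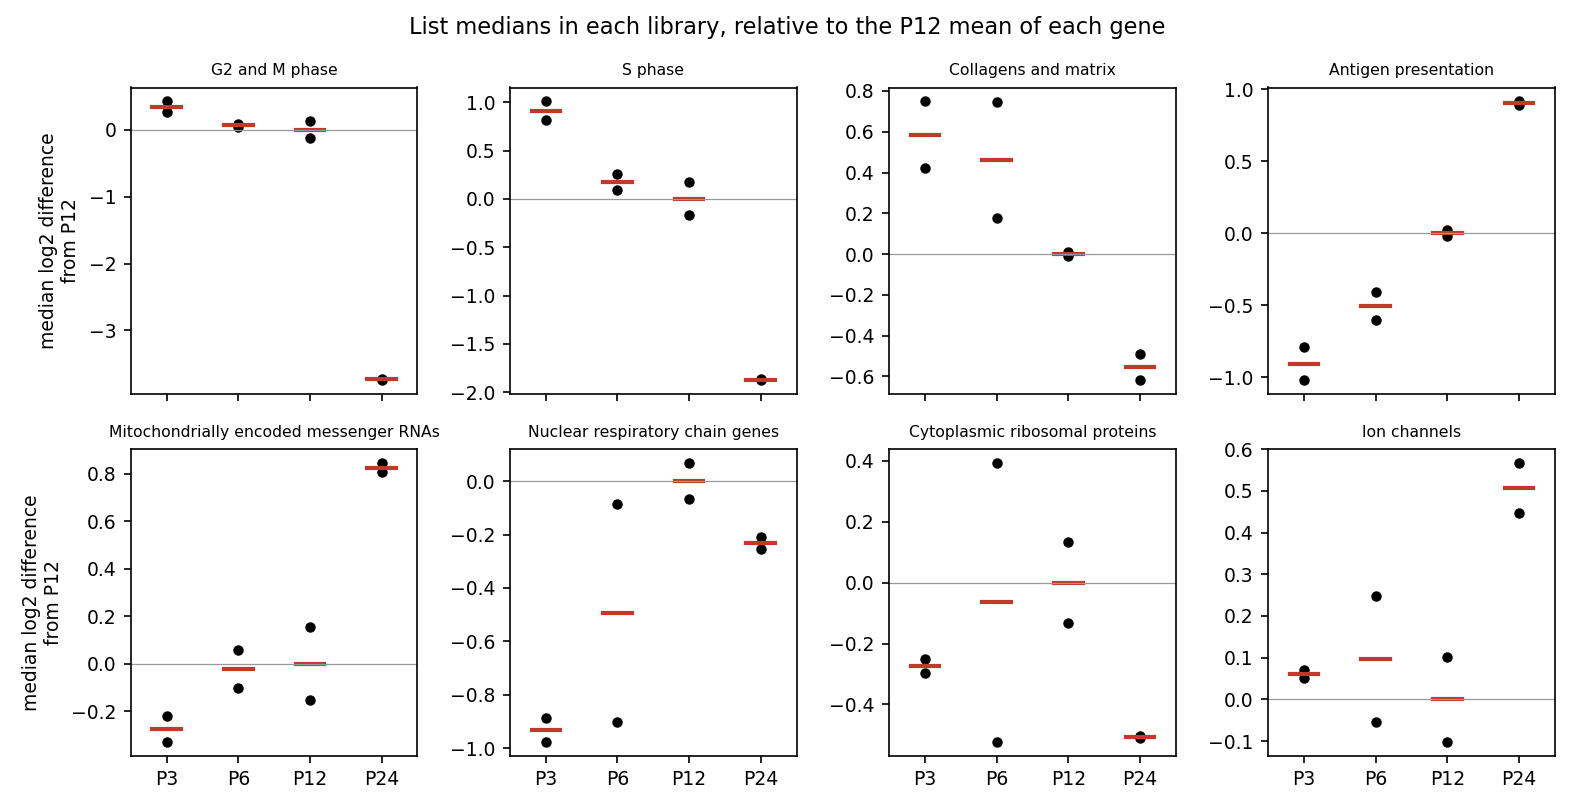
Median log2 difference from the P12 mean over the tested members of 8 lists, 1 point per library at P3, P6, P12 and P24, with the mean of the 2 libraries as a red line; the vertical scale differs between panels. G2 and M phase genes lie between -0.13 and 0.42 up to P12 and at -3.74 and -3.73 at P24, and the antigen presentation list stands higher at each later stage.

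The start regions of 2 mitotic genes are shown as examples of windows that hold both of a pair of short elements searched in this list. The windows run from 250 bases before to 50 bases after a RefSeq start (build GRCm38.p6) in the direction of the gene, and capitals mark TTTGAA, the core of the cell cycle homology region (CHR), and CCAAT, the CCAAT box, each searched on both strands.
Cdk1, chr10:69352863-69353162, minus strand: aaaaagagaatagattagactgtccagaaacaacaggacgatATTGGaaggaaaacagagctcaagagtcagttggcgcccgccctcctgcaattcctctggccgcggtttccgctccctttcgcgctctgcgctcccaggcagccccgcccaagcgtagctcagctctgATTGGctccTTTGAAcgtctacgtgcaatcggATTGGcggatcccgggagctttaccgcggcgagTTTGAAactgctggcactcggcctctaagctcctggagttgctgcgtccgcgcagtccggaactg
Ccnb2, chr9:70421505-70421804, minus strand: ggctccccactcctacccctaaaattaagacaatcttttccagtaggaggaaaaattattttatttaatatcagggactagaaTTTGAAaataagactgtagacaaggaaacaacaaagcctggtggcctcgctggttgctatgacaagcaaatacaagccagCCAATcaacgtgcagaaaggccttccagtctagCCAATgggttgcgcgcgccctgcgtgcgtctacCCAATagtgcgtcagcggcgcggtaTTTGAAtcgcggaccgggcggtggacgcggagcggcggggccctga
Each window held 2 CHR and 3 CCAAT matches, and none overlapped another. The window of Ccnb1 held 2 CCAAT matches and no CHR match. RefSeq windows were found for 48 of the 57 G2 and M phase genes. TTTGAA was present in 69.8% of their 53 windows, against 17.9% of all 32851 windows, and CCAAT in 77.4% against 37.4%. TTTNGCGC, an E2F element, was present in 29.5% of the 44 windows of S phase genes, against 1.38% of all windows. A match describes these letters and not a bound factor. Ccnb2, cyclin B2, chosen for its window after its values were seen, had 51.5 and 47.96 normalized counts at P24, against 843 and 1090.5 at P12, a log2 change of -4.24.

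Cell cycle inhibitors had 5 of 14 tested genes higher and 4 lower at P24, against 27% and 21.4% of all genes tested, and a median log2 change of 0.04. With scaling by library size alone 3 rose and 6 fell, and in the fit on 8 libraries 2 rose and 4 fell. Cdkn2c and Cdkn2d, INK4 inhibitors that block cyclin D kinases, fell. Cdkn2c had 409 and 416 normalized counts at P24, against 1087 and 1305 at P12 (log2 change -1.53 ± 0.11 (SE), limma adjusted p = 5.16e-07), and Cdkn2d had 431 and 399.7 normalized counts at P24, against 1095 and 1339 at P12 (log2 change -1.54 ± 0.12 (SE), limma adjusted p = 6.48e-07). Cdkn2a had 0 and 1.23 normalized counts at P24, which is 1 read in all, against 11.6 and 19.3 at P12. Rbl2, a pocket protein of resting cells, rose, with 1542 and 1195 normalized counts at P24, against 905 and 869 at P12, a log2 change of 0.61. Rb1, the retinoblastoma protein, had 798 and 783 normalized counts at P24, against 595 and 506 at P12, a log2 change of 0.53. Without P24 replicate 2 the number of rising inhibitors was 3.

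Contractile and membrane genes of the muscle cell changed in both directions. Over all genes tested 27% rose and 21.4% fell. Of 22 tested fetal and neonatal isoforms 9 rose and 9 fell, with a median of 0.08. Of 36 adult muscle genes 17 rose and 3 fell, with a median of 0.29. Without P12 replicate 2 the number of falling adult genes was 7. Scaled by library size alone the adult list had 13 rising and 8 falling genes, and the fetal list 7 and 10. In the fit on 8 libraries the adult list had 11 rising and 1 falling, and the fetal list 4 and 7. Both are lists of short genes, and with the length trend removed 20 adult genes rose and 3 fell, while 9 fetal genes rose and 9 fell.

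Tnni1, a slow skeletal troponin I that the fetal heart uses, had the largest fall among genes that reached a mean of 100 at either stage, with 28.5 and 33.2 normalized counts at P24, against 886 and 3197 at P12 (log2 change -5.73 ± 0.40 (SE), limma adjusted p = 2.78e-07). The P12 libraries lay apart from each other, and both were far above the P24 libraries. At P3 it had 44646 and 59147 normalized counts and at P6 21033 and 45058. Tnnt1, the slow skeletal troponin T, had 493 and 562 normalized counts at P24, against 1484 and 1470.0 at P12 (log2 change -1.49 ± 0.10 (SE), limma adjusted p = 2.91e-07). Kcne1, a subunit of the slow delayed rectifier potassium channel, had 1059 and 772 normalized counts at P24, against 5045 and 6254 at P12 (log2 change -2.63 ± 0.14 (SE), limma adjusted p = 2.47e-08). Its P6 over P3 change was 0.56, and the difference between the changes was -3.20 ± 0.34 (SE, limma adjusted p = 0.00103).

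Among the fetal genes that rose, Nppa, atrial natriuretic peptide, had 2617 and 2569 normalized counts at P24, against 617 and 1426 at P12 (log2 change 1.47 ± 0.26 (SE), limma adjusted p = 0.000521), with the P12 libraries more than 2-fold apart. Myl7, the atrial myosin light chain, had 131 and 111 normalized counts at P24, against 28.5 and 19.3 at P12, a log2 change of 2.32, and Hcn4, the pacemaker channel, had 266 and 359 normalized counts at P24, against 175 and 133 at P12, a log2 change of 1.01. Atrial markers moved with them: 5 of 9 tested rose and 2 fell, against 27% and 21.4% of all genes tested. Their summed level was higher in both P24 libraries, with Bmp10 at 0 in all 4 libraries. Their part in the rise of Myl7 and Nppa, which belong to both lists, was not tested. Earlier, Myl7 differed widely within a stage, with 4004 and 52.4 normalized counts at P3, then 17.2 and 708 at P6.

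Among adult muscle genes, Xirp2, an actin-binding protein of the intercalated disc, had 9939 and 11801 normalized counts at P24, against 4095 and 3453 at P12 (log2 change 1.53 ± 0.11 (SE), limma adjusted p = 2.78e-07). Eef1a2, the translation elongation factor of adult muscle, had 25743 and 30840.2 normalized counts at P24, against 14638 and 13218 at P12 (log2 change 1.02 ± 0.10 (SE), limma adjusted p = 7.05e-06). Eef1a1, its widely expressed counterpart, had 36614 and 37534 normalized counts at P24, against 69529.6 and 69440.3 at P12 (log2 change -0.91 ± 0.09 (SE), limma adjusted p = 8.04e-06) and was among the 5 largest falls in normalized count. The 2 elongation factors moved in opposite directions, with no overlap between the stages for either. Art1, a muscle ADP-ribosyltransferase, had 4143 and 3745 normalized counts at P24, against 2169 and 1736 at P12, a log2 change of 1.02. Tnnc1, cardiac troponin C, had 81086 and 84073 normalized counts at P24, against 107851 and 139939 at P12, a log2 change of -0.57 that was -0.27 with the length trend removed.

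Ion channels mostly rose, with 23 of 37 tested members higher and 5 lower at P24 and a median of 0.52. Over all genes tested 27% rose and 21.4% fell. The size and count of this rise depended on the processing. Library-size scaling gave 19 higher and 7 lower channels and a median of 0.32. The fit on 8 libraries called 13 higher and 2 lower. Removal of the length trend left 21 higher and 5 lower, with a median of 0.40. Without P12 replicate 1 and without P24 replicate 1 the falling count was 3. Kcnv2, a silent potassium channel subunit, had 205 and 200.5 normalized counts at P24, against 8.43 and 8.67 at P12 (log2 change 4.41 ± 0.25 (SE), limma adjusted p = 5.52e-08). It was near 0 at P3 and P6, with 5.27 and 1.09 and then 3.04 and 0 normalized counts. Kcnd3, a pore subunit of the transient outward potassium current, had 659.8 and 664 normalized counts at P24, against 196 and 113 at P12 (log2 change 2.15 ± 0.20 (SE), limma adjusted p = 4.03e-06). Clcn1, the skeletal muscle chloride channel, had 274 and 439 normalized counts at P24, against 82.2 and 100.2 at P12, a log2 change of 1.92. Both P24 libraries lay above both P12 libraries in all 3 genes. Gjc1, a gap junction protein of the embryonic heart, fell, with 779 and 799 normalized counts at P24, against 1320.3 and 1324 at P12, a log2 change of -0.74.

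Of 28 calcium cycling and t-tubule genes 13 rose and 8 fell, against 27% and 21.4% of all genes tested. The list median was 0.15, and it was -0.09 with the length trend removed and -0.05 when scaled by library size. Its sign thus depended on the scaling. Without P24 replicate 2 the falling count was 5. Cmya5, a scaffold of the junction between tubule and sarcoplasmic reticulum, had 16639.7 and 18306 normalized counts at P24, against 7029 and 5129.6 at P12 (log2 change 1.54 ± 0.12 (SE), limma adjusted p = 1.04e-06). Jph1, junctophilin 1, which ties the same membranes together, had 648 and 729 normalized counts at P24, against 353 and 274 at P12, a log2 change of 1.14. Casq1, the skeletal form of the calcium store protein calsequestrin, fell, with 473 and 689 normalized counts at P24, against 1781 and 1392 at P12, a log2 change of -1.46.

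**Figure D5:**
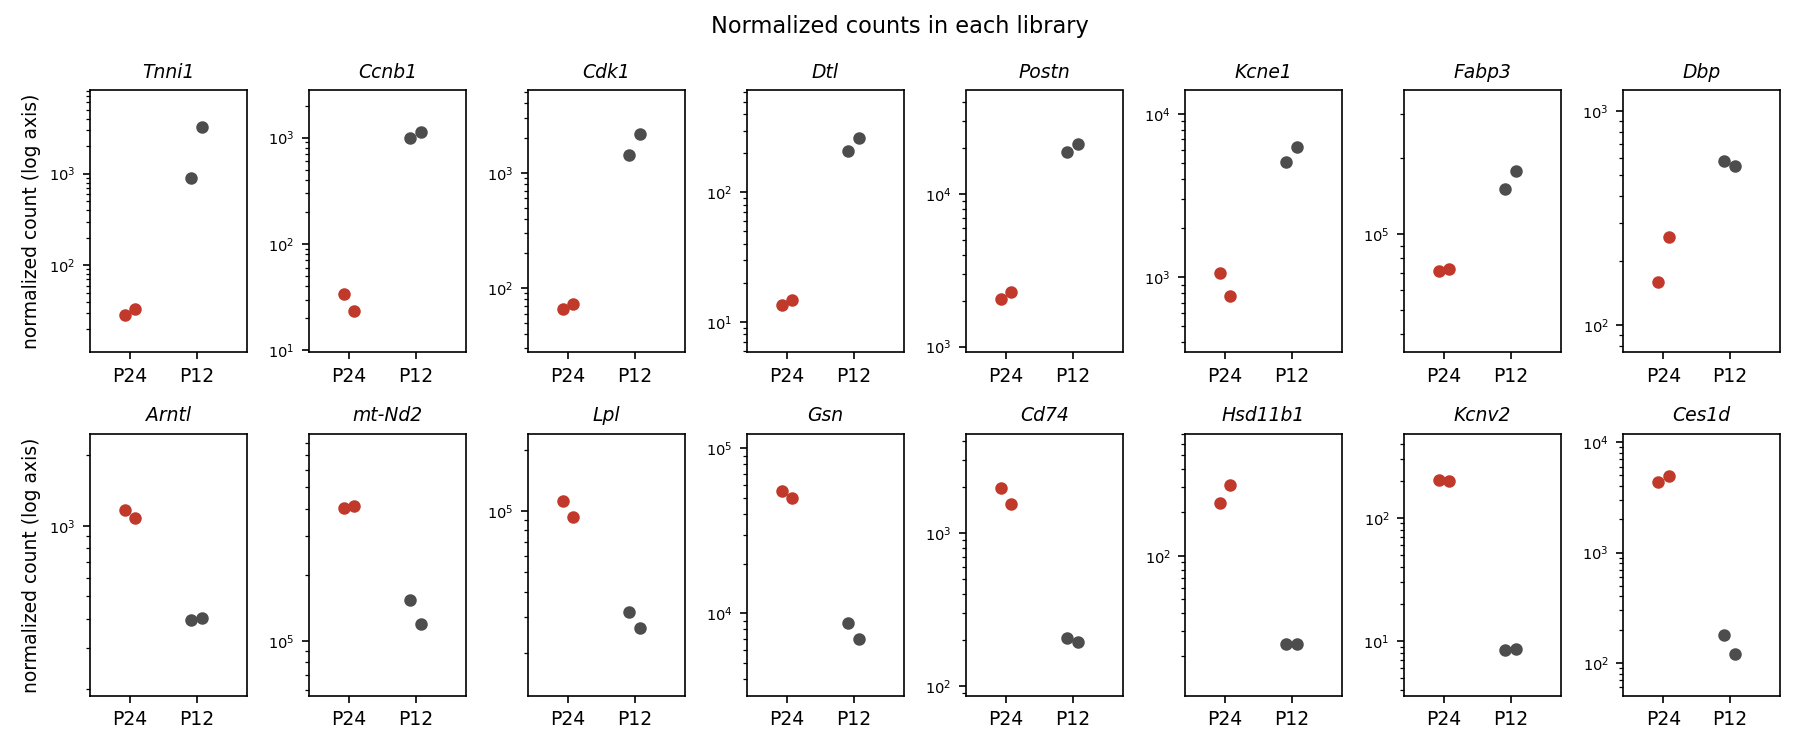
Normalized counts of 16 genes in each library, P24 (red) left of P12 (grey), 2 points per stage, each panel on its own log axis. In each panel the stages do not overlap: Tnni1, Ccnb1, Cdk1, Dtl, Postn, Kcne1, Fabp3 and Dbp are lower at P24, and the lower row, from Arntl to Ces1d, is higher.

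Genes encoded by mitochondrial DNA took a larger share of the reads at P24, with 18.8% and 19.0% in the P24 libraries, against 13.3% and 10.98% in the P12 libraries. The means were 18.9% ± 0.131 at P24 and 12.2% ± 1.67 at P12 (SD, n = 2 each; two-sided exact permutation test p = 0.333, the smallest that 2 against 2 allows). Of 11 such messages tested 9 rose and none fell, against 27% and 21.4% of all genes tested, with a median log2 change of 0.82. The 11 include mt-Atp6, mt-Co2, mt-Co3 and mt-Nd3, whose values are uncertain, as described below, and mt-Atp6 was among the 9 that rose. Quantile normalization, which forces equal distributions, left 6 rising, and the fit on 8 libraries 3, while with the length trend removed 10 rose.

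mt-Nd2, a subunit of complex I, had 403494 and 411879 normalized counts at P24, against 154178 and 119767 at P12 (log2 change 1.58 ± 0.14 (SE), limma adjusted p = 2.48e-06). mt-Nd4, of the same complex, had 326336 and 335036 normalized counts at P24, against 160699 and 123171 at P12 (log2 change 1.23 ± 0.14 (SE), limma adjusted p = 2.11e-05). mt-Cytb, cytochrome b of complex III, had 904769 and 938021 normalized counts at P24, against 606502 and 447991 at P12, a log2 change of 0.82. The 2 libraries of P24 lay close together and above both P12 libraries in each gene. mt-Nd1, mt-Nd5 and mt-Nd6 had log2 changes of 0.83, 0.88 and 0.65. mt-Co1, a core subunit of complex IV, had 2902931 and 2920350.2 normalized counts at P24, against 1957135 and 1545213 at P12 (log2 change 0.74 ± 0.22 (SE), limma adjusted p = 0.0127), and its call was lost without either P24 library. mt-Atp6, mt-Co3 and mt-Nd3 had between 28.9 and 157 normalized counts in all 4 libraries, and mt-Co2 had 130.1 and 178 normalized counts at P24, against 68.5 and 3966 at P12. Near-identical copies of mitochondrial genes lie in the nuclear genome and the sources used here do not give how reads with several matches were counted, so these 4 values are uncertain.

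Nuclear genes of the same respiratory chain did not rise with them. Of 72 tested 36 fell and 1 rose, against 21.4% and 27% of all genes tested. The list median was -0.22, and none of the 72 was called with a 2-fold change. These are short genes, and with the length trend removed 11 fell, 8 rose and the median was -0.03. Leaving out P24 replicate 1 or P24 replicate 2 left 15 or 19 falling genes, and without P12 replicate 1 the rising count was 4. In the limma fit on 8 libraries 0 of the 72 passed the test and 0 had an unadjusted p below 0.05, while on the reads of the 4 libraries edgeR called 39 falling and DESeq2 41. Uqcr10, a small subunit of complex III, had 10937 and 10943 normalized counts at P24, against 15172 and 18239 at P12 (log2 change -0.60 ± 0.10 (SE), limma adjusted p = 0.00027, and -0.19 with the length trend removed). The list had stood at -0.98 and -0.89 at P3 and at -0.90 and -0.09 at P6, relative to P12.

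Cytoplasmic ribosomal protein genes fell in 65 of 74 cases and rose in none, against 21.4% and 27% of all genes tested. The list median was -0.51. These genes are also short, and with the length trend removed 45 fell, 4 rose and the median was -0.35. In the fit on 8 libraries 2 fell. Rpl3 had 8213 and 9232 normalized counts at P24, against 15073 and 16823 at P12 (log2 change -0.87 ± 0.09 (SE), limma adjusted p = 1.13e-05). Rpl39 had 3241 and 3119 normalized counts at P24, against 6062 and 7874 at P12 (log2 change -1.12 ± 0.11 (SE), limma adjusted p = 6e-06). Both P12 libraries exceeded both P24 libraries in each. Many pseudogenes share sequence with this family and with Eef1a1, so single members are less certain than the list.

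Of 28 citric acid cycle and pyruvate entry genes 8 rose and 3 fell, against 27% and 21.4% of all genes tested. The list median was 0.17. Scaled by library size alone the balance turned, with 4 rising, 8 falling and a median of -0.03. The rising count was 14 without P12 replicate 1 and 5 without either P24 library, and the falling count was 5 without P12 replicate 1. Pcx, pyruvate carboxylase, which refills the cycle from pyruvate, had 828 and 740.3 normalized counts at P24, against 212 and 197 at P12 (log2 change 1.93 ± 0.12 (SE), limma adjusted p = 1.25e-07). Ogdh, a subunit of the oxoglutarate dehydrogenase complex, had 45800.5 and 49943 normalized counts at P24, against 27363 and 24279 at P12, a log2 change of 0.89, and Got1, of the malate-aspartate shuttle, had 21993 and 23569.8 normalized counts at P24, against 13848 and 13259 at P12, a log2 change of 0.75.

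Fatty acid uptake and oxidation genes had 7 of 37 rising and 9 falling, against the 27% and 21.4% of all genes tested, and a median of 0.04. Scaling by library size alone gave 7 rising and 16 falling. The rising count was 12 without P12 replicate 1 and the falling count 5 without P24 replicate 1. Lpl, lipoprotein lipase, which frees fatty acids from circulating lipoproteins, had 111049 and 93658 normalized counts at P24, against 31724 and 26426 at P12 (log2 change 1.82 ± 0.12 (SE), limma adjusted p = 1.52e-07). Fabp3, the heart fatty acid binding protein, went the other way, with 71003 and 72447 normalized counts at P24, against 151708 and 177709 at P12 (log2 change -1.19 ± 0.11 (SE), limma adjusted p = 4.57e-06), the largest fall in mean normalized count among the genes that changed. The libraries of the 2 stages were well apart for both. Fabp4, a fatty acid binding protein of the capillary endothelium, had 21997 and 22939 normalized counts at P24, against 37049 and 42450.2 at P12, a log2 change of -0.82.

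Targets of PPAR-alpha, the lipid-sensing nuclear receptor, fell in 11 of 23 cases and rose in 5, against 21.4% and 27% of all genes tested. The list median was -0.12. The rising count was 2 without P12 replicate 2 and 3 without P24 replicate 1. Angptl4, a secreted inhibitor of Lpl, had 508 and 307 normalized counts at P24, against 1126 and 1470.0 at P12 (log2 change -1.70 ± 0.19 (SE), limma adjusted p = 1.84e-05). Both P24 values were below both P12 values. Plin4, a lipid droplet protein, rose, with 5343 and 4703 normalized counts at P24, against 2814 and 2449 at P12, a log2 change of 0.93.

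In the lipogenesis list 9 of 23 rose and 3 fell, although the median was -0.04. This list and the cholesterol and ketone lists below stand against 27% rising and 21.4% falling over all genes tested. Scd1, stearoyl-CoA desaturase, had 424 and 378 normalized counts at P24, against 131 and 103 at P12 (log2 change 1.78 ± 0.16 (SE), limma adjusted p = 2.62e-06). Lpin1, a phosphatidate phosphatase, had 5261 and 4904 normalized counts at P24, against 2229.7 and 1760.0 at P12 (log2 change 1.36 ± 0.11 (SE), limma adjusted p = 9.17e-07). Acacb, the acetyl-CoA carboxylase that restrains mitochondrial fatty acid entry, had 8734 and 8296 normalized counts at P24, against 4976 and 3739 at P12, a log2 change of 0.98. Scaling by library size alone gave 7 rising and 9 falling. Cholesterol synthesis genes had 3 rising and 5 falling of 23, with a median of 0.06. The falling count was 2 without P12 replicate 2 and 3 without P24 replicate 1. Of 12 genes of ketone body and monocarboxylate use 4 rose and 4 fell, and the falling count was 2 without either P24 library. Bdh1, which interconverts the ketone bodies, had 96.2 and 75.02 normalized counts at P24, against 18.97 and 27.9 at P12, a log2 change of 1.84.

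Glycolysis, glucose entry and glycogen genes rose in 19 of 34 cases and fell in 6, against 27% and 21.4% of all genes tested. The list median was 0.42. Under library-size scaling 15 rose and 11 fell. Pdk2, a kinase that inhibits pyruvate dehydrogenase, had 8462 and 8461 normalized counts at P24, against 3966 and 3816 at P12 (log2 change 1.12 ± 0.08 (SE), limma adjusted p = 3.49e-07). Pfkfb2, the heart form of the enzyme that makes the main activator of phosphofructokinase, had 2557 and 1974 normalized counts at P24, against 1068 and 1131 at P12, a log2 change of 1.03. Ppp1r3a, a glycogen-targeting subunit of protein phosphatase 1, had 3073 and 3328 normalized counts at P24, against 1945 and 1431 at P12, a log2 change of 0.94. The stages did not overlap for these 3 genes. Eno1, the widely expressed enolase, fell, with 4446 and 5094 normalized counts at P24, against 7265 and 8903 at P12, a log2 change of -0.76.

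Of 19 tested retinoic acid genes 7 rose and 4 fell, against 27% and 21.4% of all genes tested. The list median was 0.18, and it was -0.02 when scaled by library size. The synthesis enzyme Aldh1a2, which the epicardium also expresses, had 381 and 394 normalized counts at P24, against 1145 and 1251 at P12 (log2 change -1.63 ± 0.11 (SE), limma adjusted p = 1.52e-07). Aldh1a3, another synthesis enzyme, had 60.97 and 47.96 normalized counts at P24, against 113 and 123 at P12 (log2 change -1.11 ± 0.21 (SE), limma adjusted p = 0.000925). Aldh1a1 had 515 and 626 normalized counts at P24, against 426 and 306 at P12 (log2 change 0.65 ± 0.16 (SE), limma adjusted p = 0.00454). Of the 3 synthesis enzymes the first 2 were lower and the last was higher at P24 in both libraries. Markers of the epicardium moved with Aldh1a2, which is one of them: 6 of 11 fell and none rose, and they summed to 1578 and 1556 normalized counts at P24, against 3173 and 3078 at P12, with none at 0. Their part in the fall was not tested.

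Among the other enzymes of the pathway, Lrat, which stores retinol as ester, had 92.1 and 84.9 normalized counts at P24, against 43.2 and 23.1 at P12 (log2 change 1.45 ± 0.29 (SE), limma adjusted p = 0.00134). Adh1, an alcohol dehydrogenase that oxidizes retinol, had 211 and 200.5 normalized counts at P24, against 81.1 and 82.8 at P12 (log2 change 1.317 ± 0.17 (SE), limma adjusted p = 4.61e-05). Dhrs3, which turns retinaldehyde back to retinol, had 1539 and 1456 normalized counts at P24, against 892 and 872 at P12 (log2 change 0.76 ± 0.09 (SE), limma adjusted p = 3.55e-05). All 3 were higher in both P24 libraries. Cyp26b1, which degrades retinoic acid, had 60.97 and 89.8 normalized counts at P24, against 40.04 and 31.8 at P12, a log2 change of 1.03, and its call was lost without P24 replicate 2. Rdh10, Rdh5, Rdh14 and Retsat did not pass the test, with log2 changes between -0.24 and 0.35.

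Of the receptors, Rxra had 2296 and 2057 normalized counts at P24, against 1212 and 1089 at P12 (log2 change 0.92 ± 0.10 (SE), limma adjusted p = 1.13e-05). Rxrg had 2592 and 2394 normalized counts at P24, against 1714 and 1652 at P12 (log2 change 0.57 ± 0.09 (SE), limma adjusted p = 0.000226). Its P6 over P3 change was 2.32, and the difference between the changes was -1.76 ± 0.21 (SE, limma adjusted p = 0.00213), so its rise was smaller in the later step. Rara, Rarb, Rarg and Rxrb did not pass the test, with log2 changes of 0.18, 0.05, 0.21 and 0.08. Rbp7, a retinoid binding protein, fell, with 305 and 288 normalized counts at P24, against 561 and 722 at P12, a log2 change of -1.10.

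Extracellular matrix genes fell in 37 of 57 cases and rose in 9, against 21.4% and 27% of all genes tested. The list median was -0.59. With the length trend removed 41 fell and 6 rose, and in the fit on 8 libraries 18 fell and 5 rose. Postn, periostin, a matrix protein of activated fibroblasts, had 2069 and 2298 normalized counts at P24, against 18864 and 21242 at P12 (log2 change -3.20 ± 0.09 (SE), limma adjusted p = 3.33e-10). Mfap4, a microfibril protein, had 438 and 459.9 normalized counts at P24, against 4113 and 3818 at P12 (log2 change -3.14 ± 0.09 (SE), limma adjusted p = 3.33e-10). Col3a1, a fibrillar collagen, had 21176 and 22189 normalized counts at P24, against 40763 and 39737 at P12 (log2 change -0.89 ± 0.09 (SE), limma adjusted p = 5.82e-06). Both P24 libraries lay below both P12 libraries in each gene. Sparc, which binds collagen, and Tnc, tenascin C, had log2 changes of -0.95 and -1.99. Timp4, a metalloproteinase inhibitor, rose, with 588 and 671 normalized counts at P24, against 172 and 162 at P12, a log2 change of 1.91.

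Fibroblast markers beside them did not share a direction: 5 of 15 rose and 8 fell, against 27% and 21.4% of all genes tested. None of these markers was at 0. They summed to 115689 and 112722 normalized counts at P24, against 81595 and 80015 at P12, and the order turned without Gsn, left out after its values were seen, with 60629 and 62684 normalized counts at P24, against 72878 and 72968 at P12. Gsn, gelsolin, an actin-severing protein, had 55061 and 50038 normalized counts at P24, against 8716 and 7047 at P12 (log2 change 2.74 ± 0.11 (SE), limma adjusted p = 2.28e-09). Mfap5, a microfibril protein, had 1045 and 1038 normalized counts at P24, against 2999.9 and 3165 at P12 (log2 change -1.56 ± 0.09 (SE), limma adjusted p = 4.48e-08). Tcf21, a fibroblast transcription factor, had 482 and 485 normalized counts at P24, against 844 and 878 at P12, a log2 change of -0.83. Gsn moved against the other 2. Without P24 replicate 2 the rising count was 3. The part of fibroblast number in the matrix genes was not tested.

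Imprinted and fetal growth genes had 12 of 25 falling and 6 rising, against 21.4% and 27% of all genes tested. Mest, an imprinted gene of fetal growth, had 374 and 449 normalized counts at P24, against 2248 and 2909 at P12 (log2 change -2.64 ± 0.13 (SE), limma adjusted p = 1.52e-08). Dlk1, an imprinted Notch-related ligand, had 6.77 and 4.92 normalized counts at P24, against 59.01 and 78.99 at P12 (log2 change -3.35 ± 0.36 (SE), limma adjusted p = 1.15e-05). Igfbp3, which binds insulin-like growth factors, rose, with 1225 and 1424 normalized counts at P24, against 454 and 423 at P12 (log2 change 1.59 ± 0.11 (SE), limma adjusted p = 2.87e-07). The stages did not overlap for any of the 3. The median was -0.01, and with the length trend removed 13 fell, 7 rose and the median was -0.23.

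Immune genes rose. In the antigen presentation list 17 of 21 rose and none fell, with a median of 0.93. This list and the complement and interferon lists below stand against 27% rising and 21.4% falling over all genes tested. In the complement and chemokine list 18 of 23 rose and none fell, with a median of 0.75, and in the interferon response list 30 of 48 rose and none fell, with a median of 0.56. With the length trend removed 17, 19 and 32 members of the 3 lists rose. Under library-size scaling 1 antigen presentation gene and 3 interferon genes fell. In the fit on 8 libraries 14, 9 and 17 members of the 3 lists rose. Class II and Ifit genes have close relatives, so reads may be split between copies. The first list stood at -0.79 and -1.02 at P3, then at -0.61 and -0.41 at P6, then at 0.02 and -0.02 at P12, and last at 0.92 and 0.89 at P24.

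Cd74, the invariant chain of class II presentation, had 1977 and 1539.7 normalized counts at P24, against 207 and 195 at P12 (log2 change 3.12 ± 0.13 (SE), limma adjusted p = 3.38e-09). H2-Aa, the alpha chain of the class II molecule itself, had 891 and 668 normalized counts at P24, against 90.6 and 127 at P12 (log2 change 2.83 ± 0.18 (SE), limma adjusted p = 1.31e-07). H2-Ab1, its beta chain, had 965 and 674 normalized counts at P24, against 116 and 114 at P12 (log2 change 2.80 ± 0.16 (SE), limma adjusted p = 6.4e-08). All 3 class II genes were several times higher in each P24 library than in either P12 library. Cxcl14, a chemokine, had 119 and 102 normalized counts at P24, against 8.43 and 4.82 at P12 (log2 change 3.91 ± 0.33 (SE), limma adjusted p = 1.74e-06), and C4b, a complement component, had 207 and 197 normalized counts at P24, against 28.5 and 26.97 at P12 (log2 change 2.82 ± 0.20 (SE), limma adjusted p = 3.71e-07).

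Macrophage markers rose with these genes, 14 of 17 tested higher and 1 lower (14 and 0 with the length trend removed). Over all genes tested 27% rose and 21.4% fell. C1qa, C1qb and C1qc belong to both the macrophage list and the complement and chemokine list. The 20 macrophage markers summed to 13861 and 14034 normalized counts at P24, against 9392 and 8379 at P12, with none at 0. Cd163, a scavenger receptor of resident macrophages, had 656 and 873 normalized counts at P24, against 237 and 119 at P12, a log2 change of 2.16. Mgl2, a lectin, had 607 and 485 normalized counts at P24, against 103 and 66.5 at P12, a log2 change of 2.695, and Retnla, a secreted protein of alternatively activated macrophages, had 145 and 77.5 normalized counts at P24, against 12.6 and 12.5 at P12, a log2 change of 2.98. Lymphocyte and granulocyte markers did not rise: 4 of 11 fell, and the 24 markers summed to 466 and 521 normalized counts at P24, against 693 and 874 at P12, with Ly6g and Mpo at 0. The part of macrophage number in the immune lists was not tested.

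Among the interferon-responsive genes, Tgtp1, a GTPase, had 85.4 and 84.9 normalized counts at P24, against 18.97 and 16.4 at P12 (log2 change 2.21 ± 0.27 (SE), limma adjusted p = 2.99e-05). Ifit1, which binds foreign RNA ends, had 243 and 262 normalized counts at P24, against 100.1 and 45.3 at P12 (log2 change 1.89 ± 0.28 (SE), limma adjusted p = 0.00016), with the P12 libraries more than 2-fold apart. Ifit3, named for its window and chosen after its values were seen, had 385 and 438 normalized counts at P24, against 179 and 101 at P12, a log2 change of 1.60. Oas3, an RNA sensor, had 16.3 and 12.3 normalized counts at P24, against 4.21 and 1.93 at P12, a log2 change of 1.96 that lost its call without P12 replicate 2 and without P24 replicate 1. Start regions of 2 of these genes are shown for the interferon-stimulated response element (ISRE) that they share, searched as GAAANNGAAA on both strands and set in capitals.
Ifit1, chr19:34640639-34640938, plus strand: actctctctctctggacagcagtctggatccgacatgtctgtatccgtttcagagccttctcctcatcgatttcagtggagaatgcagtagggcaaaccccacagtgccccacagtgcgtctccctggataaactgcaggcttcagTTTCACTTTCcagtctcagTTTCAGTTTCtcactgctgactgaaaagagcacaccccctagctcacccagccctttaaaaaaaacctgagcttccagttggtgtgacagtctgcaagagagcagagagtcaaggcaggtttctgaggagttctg
Ifit3, chr19:34583279-34583578, plus strand: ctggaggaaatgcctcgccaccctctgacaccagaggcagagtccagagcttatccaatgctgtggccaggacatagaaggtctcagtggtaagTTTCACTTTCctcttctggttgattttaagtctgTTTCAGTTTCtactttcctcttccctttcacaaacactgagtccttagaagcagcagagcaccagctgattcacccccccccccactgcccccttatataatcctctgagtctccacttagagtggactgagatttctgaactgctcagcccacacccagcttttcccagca
Each window held 2 matches that did not overlap, while the window of Irf7, an interferon regulatory factor, held none. RefSeq windows were found for 32 of the 48 genes of the list, and 56.8% of their 37 windows held the element, against 3.44% of all windows.

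Genes responsive to glucocorticoid rose in 13 of 22 cases and fell in none, with a median of 0.50. This list and the thyroid hormone list below stand against 27% rising and 21.4% falling over all genes tested. In the fit on 8 libraries 8 glucocorticoid-responsive genes rose, and scaling by library size alone gave 11 rising and 1 falling. Hsd11b1, which regenerates active glucocorticoid inside cells, had 234 and 309.9 normalized counts at P24, against 24.2 and 24.1 at P12 (log2 change 3.43 ± 0.21 (SE), limma adjusted p = 1.04e-07). Both P24 values were several times the P12 values, which were nearly equal. In the thyroid hormone list 9 of 14 rose and 1 fell, with a median of 0.54. These counts were the same with the length trend removed, and in the fit on 8 libraries 4 rose and none fell. Library-size scaling gave 8 rising and 2 falling. Thrb, the thyroid hormone receptor beta, had 557 and 632 normalized counts at P24, against 340.4 and 246 at P12 (log2 change 1.03 ± 0.15 (SE), limma adjusted p = 0.000154). Klf9, a transcription factor that both hormones induce, had 3382 and 3260.1 normalized counts at P24, against 2218 and 1577 at P12, a log2 change of 0.83. Members of the 2 lists are also set by other signals.

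The circadian clock, a feedback loop in which Arntl and Clock activate the Per and Cry genes that then repress them, had 7 of 23 genes rising and 5 falling, shares near the 27% and 21.4% of all genes tested. With the length trend removed 7 rose and 6 fell, and library-size scaling gave 6 rising and 7 falling. Of the activators, Arntl had 1171 and 1085 normalized counts at P24, against 395 and 401 at P12 (log2 change 1.50 ± 0.10 (SE), limma adjusted p = 2.96e-07). Npas2, which can stand in for Clock, had 381 and 398 normalized counts at P24, against 165 and 168 at P12 (log2 change 1.22 ± 0.13 (SE), limma adjusted p = 1.41e-05), and Clock had a log2 change of 0.84. The activators were higher in both P24 libraries. Of the output and repressor genes, Dbp had 159.9 and 257 normalized counts at P24, against 583 and 553 at P12 (log2 change -1.48 ± 0.18 (SE), limma adjusted p = 3.89e-05), and Per3 had 336 and 426 normalized counts at P24, against 942 and 987 at P12 (log2 change -1.35 ± 0.13 (SE), limma adjusted p = 3.75e-06). Those 2 were lower in both P24 libraries.

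Per2 and Nr1d2 also fell, with log2 changes of -0.58 and -0.53, the first of which lost its call without P24 replicate 1. Cry1 and Rora rose, with log2 changes of 0.75 and 1.12. Per1, Cry2 and Nr1d1 did not pass the test, with log2 changes of -0.0025, 0.07 and -0.02. Since the hour of collection is not given, stage and time of day cannot be told apart for these genes.

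Start regions of Arntl and Per3 are shown as examples of windows that hold an element of the clock. Windows examined singly were each searched for only some of these elements. Capitals mark TAGGTCA, the ROR response element that Rora recognises, in the second of the RefSeq windows of Arntl, and TTATGTAA, the D-box that Dbp recognises, in Per3, each searched on both strands.
Arntl, chr7:113207261-113207560, plus strand: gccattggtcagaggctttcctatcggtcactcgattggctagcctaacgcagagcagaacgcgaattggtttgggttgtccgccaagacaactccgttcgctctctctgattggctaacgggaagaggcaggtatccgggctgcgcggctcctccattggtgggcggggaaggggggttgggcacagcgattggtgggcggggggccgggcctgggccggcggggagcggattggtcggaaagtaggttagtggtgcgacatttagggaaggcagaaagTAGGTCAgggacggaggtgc
Per3, chr4:151044616-151044915, minus strand: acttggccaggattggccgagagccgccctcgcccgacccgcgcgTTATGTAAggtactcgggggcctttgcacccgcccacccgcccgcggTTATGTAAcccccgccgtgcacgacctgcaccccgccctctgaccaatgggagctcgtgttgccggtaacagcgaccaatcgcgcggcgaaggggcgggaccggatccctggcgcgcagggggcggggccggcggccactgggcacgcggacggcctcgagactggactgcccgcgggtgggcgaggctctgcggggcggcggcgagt
The Arntl window held 1 match and the Per3 window 2, with no overlap. Windows were found for 19 of the 23 clock genes. TAGGTCA was present in 2 of their 28 windows, against 2.61% of all windows, and was not found in the first window of Arntl or in those of Npas2, Clock and Cry1. TTATGTAA was present in 1 of the 28, the Per3 window shown, against 0.938% of all windows. These are too few windows to set against the shares of all windows. The E-box CACGTG was present in 7 of the 28 windows, or 25%, against 7.15% of all windows, and was not found in those of Dbp, Per3 and Nr1d2. The window of Cry1, searched singly for TAGGTCA alone, holds CACGTG.

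Immediate early genes, which respond within minutes to stimuli, rose in 10 of 26 cases and fell in 1, but the P24 libraries differed. This list and the heat shock list below stand against 27% rising and 21.4% falling over all genes tested. Relative to P12 the immediate early list median was 0.78 in P24 replicate 1 and 0.14 in P24 replicate 2. Fos had 218 and 73.8 normalized counts at P24, against 62.2 and 33.7 at P12, and Egr1 had 1092 and 455 normalized counts at P24, against 393 and 217 at P12. Leaving out P24 replicate 2 gave 19 rising genes, and leaving out P24 replicate 1 or P12 replicate 2 gave 6. Heat shock and protein folding genes rose in 14 of 27 cases and fell in 3. Scaling by library size alone gave 9 rising and 6 falling, and removal of the length trend 13 and 2. Cryab, a small heat shock protein of the sarcomere, had 24511 and 24069 normalized counts at P24, against 13592 and 12821 at P12 (log2 change 0.88 ± 0.08 (SE), limma adjusted p = 4.75e-06), and Dnaja1, a co-chaperone, fell, with 2284 and 1617 normalized counts at P24, against 3189.6 and 3124 at P12, a log2 change of -0.72.

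Antioxidant and detoxification genes held several of the largest rises. In this list 23 of 40 rose and 7 fell, against 27% and 21.4% of all genes tested, and the median was 0.32. Under library-size scaling 13 rose and 10 fell, and removal of the length trend left the counts at 23 and 7. Ces1d, a carboxylesterase that hydrolyses lipid esters, had 4333 and 4933 normalized counts at P24, against 179 and 121 at P12 (log2 change 4.96 ± 0.15 (SE), limma adjusted p = 4.41e-10). Gsta3, a glutathione transferase, had 305 and 305 normalized counts at P24, against 18.97 and 15.4 at P12 (log2 change 4.08 ± 0.21 (SE), limma adjusted p = 2.24e-08). Fmo2, a flavin monooxygenase, had 429 and 521 normalized counts at P24, against 59.01 and 38.5 at P12 (log2 change 3.28 ± 0.21 (SE), limma adjusted p = 1.13e-07). Both P24 libraries were several times above both P12 libraries for the 3 genes. Cyp1a1, the dioxin-inducible monooxygenase, had 39.3 and 31.97 normalized counts at P24 and was listed at 0 in both P12 libraries, which makes it at least 11.8-fold higher against a floor of 3 reads per library. The carboxylesterase and glutathione transferase families hold close copies, so reads may be split between them.

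Other genes among the 12 largest rises were Xdh, xanthine dehydrogenase, with 1242 and 1379 normalized counts at P24, against 207 and 125 at P12 (log2 change 3.02 ± 0.18 (SE), limma adjusted p = 9.47e-08). Myoc, myocilin, had 198 and 176 normalized counts at P24, against 16.9 and 3.85 at P12, and Snai3, a transcription factor, had 145 and 145 normalized counts at P24, against 14.8 and 21.2 at P12, with log2 changes of 4.33 and 2.97. Mmp3, a matrix metalloproteinase, had 126 and 82.4 normalized counts at P24, against 4.21 and 0.963 at P12, the P12 values resting on 5 reads in all. None of these genes had a P24 value below a P12 value.

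Against the change from P3 to P6, 1005 genes differed in their change from P12 to P24, 382 with a more positive change (2.79%) and 623 with a more negative one (4.55%). The P6 libraries lay apart, and the count was 6439 without P6 replicate 1 and 2318 without P6 replicate 2. Besides the cell cycle genes, Postn had a P6 over P3 change of -0.0043 and a difference of -3.19 ± 0.24 (SE, limma adjusted p = 0.00017). Gsn had 0.09 and a difference of 2.66 ± 0.23 (SE, limma adjusted p = 0.000306), and Cd74 had 0.02 and a difference of 3.09 ± 0.31 (SE, limma adjusted p = 0.000727). Lpl had -0.14 and a difference of 1.96 ± 0.28 (SE, limma adjusted p = 0.00524). These 4 genes were near level in the first step and moved in the last.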

How the data were processed

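RNA of whole ventricle was extracted with QIAzol and miRNeasy, selected for poly(A) tails and made into libraries with a NEBNext Ultra kit, per the labels' protocols. Assembly GRCm39 and the tools STAR 2.7.3a, Trim Galore 0.6.4, DESeq2 1.32.0 and HTSeq 0.11.2 appear in the submitters' processing notes. Neither annotation release nor strand setting is given in the sources used here, and overlapping genes are therefore uncertain. Per the file headers, the signal the authors deposited is a normalized count per gene. The FPKM values that the authors also deposited stood in a fixed ratio to it within each gene and served only for gene length.

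The normalized counts were whole multiples of 1 read in 100% of values (tolerance 0.001), which gave total reads per library. With 3 reads as the limit that a count of 0 allows (counting error only), a gene at 0 may hold up to 1.26e-05% of the reads in the shallower P24 library and 1.04e-05% in the deeper P12 library. limma 3.58.1 in R 4.3.3 was fitted to log2(normalized count + 1) of the 4 libraries, with stage as the term and a trended variance, two-sided, with Benjamini-Hochberg (BH) adjustment over all genes tested. The pseudocount understates changes of low genes. The change from P12 to P24 minus that from P3 to P6 was tested on 8 libraries. The fit was tested on simulated data. Alternatives included edgeR 4.0.16 and DESeq2 1.42.0 on the recovered reads.

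The members and lists were chosen with earlier results of these data known, so lists are described by counts and medians only. Genes named were the 12 largest rises and falls that passed the test with a mean of 100 or more, the 5 largest in normalized count, the 3 largest in each list, and all retinoic acid, clock, mitochondrial and Y-linked genes; others are marked as chosen after their values were seen. Some genes that this rule takes are not reported here. Replicate numbers did not pair the libraries. Promoter windows and sequences are from RefSeq (GRCm38.p6), another build than that of the reads, and were matched by symbol.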

Additional observations from a re-analysis of the deposited data

How the results depend on the processing

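Of the 6630 genes that changed between P12 and P24, counts under the alternatives lay within 1.5 times the main value except with all 8 libraries in the fit (2296 changed, 1162 rising and 1134 falling), with scaling by library size alone (2223 rising, 4950 falling) and when tested against a log2 change of 1 (419 changed, 124 rising and 295 falling), the last added after the data were seen. The at least 2-fold count was 811 with a mean of at least 100 required, and 419 in the last test. Leaving out 1 library gave 5052 to 6680 changed genes, 2845 to 3858 rising, 2205 to 2822 falling and 1113 to 1622 at least 2-fold. The change from P12 to P24 differed from that from P3 to P6 in 6439 genes without P6 replicate 1 and 2318 without P6 replicate 2, against 1005; the cause was not tested. Of 218 named genes that changed, 177 held in all 4 fits that left out 1 library, 148 with 8 libraries, 206 with the length trend removed, 215 with edgeR and 194 with DESeq2, and none reversed. Same-numbered libraries had deviations that correlated at -0.192, so the numbers were not taken as pairs; the replicate block gave 6737 changed genes, and the crossed pairing, the same model as a term for Y-linked reads, gave 6669. With 8 libraries 52 counts of list members moved by over 1.5 times, and with 6 libraries, without P6, 6 did. At these depths genes near 10 normalized counts rest on few reads.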

Other observations

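Of 27 tested iron and heme genes 12 were higher and 9 lower at P24 (27% and 21.4% over all genes tested), with a median log2 change of 0.06. Scaled by library size alone the balance turned, with 6 higher and 11 lower, and in the fit on 8 libraries 4 were higher and 2 lower. The falling count was 5 without P12 replicate 2 and also without either P24 library, and 8 rose and 8 fell with the length trend removed. Cp, ceruloplasmin, a ferroxidase, had 2567 and 2808 normalized counts at P24, against 829 and 676 at P12 (log2 change 1.84 ± 0.11 (SE), limma adjusted p = 7.65e-08). Trf, transferrin, the carrier of iron in plasma, had 1421 and 1536 normalized counts at P24, against 606 and 423 at P12 (log2 change 1.54 ± 0.14 (SE), limma adjusted p = 3.68e-06). Fth1, the ferritin heavy chain, had 44982 and 42239 normalized counts at P24, against 23194 and 19846 at P12, a log2 change of 1.02. The 3 genes were higher in both P24 libraries. Hmox1, heme oxygenase, fell, with 310.3 and 249.6 normalized counts at P24, against 427 and 494 at P12, a log2 change of -0.72.

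Vessel markers did not share a direction. Over all genes tested 27% rose and 21.4% fell. Of 21 endothelial and endocardial markers 8 rose and 7 fell, or 7 and 10 when scaled by library size alone, and they summed to 84654 and 90784 normalized counts at P24, against 101664 and 104776 at P12. Apln, apelin, had 780.4 and 730.5 normalized counts at P24, against 1511 and 1355 at P12, a log2 change of -0.92, and Npr3, a natriuretic peptide clearance receptor of the endocardium, had 969 and 916 normalized counts at P24, against 429 and 342 at P12, a log2 change of 1.30. Lyve1, a lymphatic and macrophage receptor, and Prox1, the lymphatic regulator that heart muscle also expresses, rose, with log2 changes of 1.15 and 1.10. Of 12 pericyte and smooth muscle markers 3 rose and 3 fell, shares near those of all genes tested. Higd1b, a pericyte marker, had 217 and 251 normalized counts at P24, against 519 and 571 at P12, a log2 change of -1.22.

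Of 11 nerve and glia markers 2 rose and 3 fell. This list and those below stand against 27% rising and 21.4% falling over all genes tested. Cdh19, a cadherin of Schwann cells, had 196 and 194 normalized counts at P24, against 74.8 and 66.5 at P12, a log2 change of 1.46. Of 9 red blood cell markers 1 rose and 3 fell, and the falling count was 5 without P12 replicate 1. They summed to 31478 and 25611 normalized counts at P24, against 26928 and 46423 at P12, so the stages overlapped. In the list of neighbouring tissues 3 of 6 tested markers fell and none rose. They summed to 156 and 208 normalized counts at P24, against 358 and 353 at P12, and Ptcra, Sftpc, Scgb1a1, Ucp1 and Prss2 were at 0 in all 4 libraries. Cpa1, a pancreatic carboxypeptidase, had 6.77 and 12.3 normalized counts at P24, against 87.5 and 87.7 at P12, a log2 change of -3.12. The 1 tested adipocyte marker, Cidea, which heart muscle can also express, had 702 and 717 normalized counts at P24, against 1199 and 1250.4 at P12, a log2 change of -0.79.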
